A study of Homo sapiens with 4 samples.

Results

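The genes of 6 insulin-like growth factor (IGF) binding proteins, *IGFBP2*, *IGFBP3*, *IGFBP4*, *IGFBP5*, *IGFBP6* and *IGFBP7*, were followed through single-cell transcriptomes of A375 melanoma cells. They were taken by name, as the members of the numbered IGFBP family other than *IGFBP1*, which had no UMI in any library, from the 32991 genes listed for every library, out of 34241 genes listed for any. A375 is an established human melanoma line with an activating *BRAF* mutation, and by the labels all 4 cultures are of it. S cells were untreated and drug-sensitive. RV cells had become resistant to the BRAF inhibitor vemurafenib, RVC cells to vemurafenib plus the MEK inhibitor cobimetinib and RVT cells to vemurafenib plus the MEK inhibitor trametinib. Resistance was reached by 10 to 14 days on the drugs at doses below the IC50, and the drugs were taken away 24 h before capture, so that the levels belong to resistant cells out of drug. Each condition is 1 culture and 1 droplet library, which leaves no replicate and allows no test between conditions.

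IGF binding proteins are secreted and hold IGF1 and IGF2 outside the cell, which keeps these ligands from the receptor IGF1R or carries them to it. Proteases such as PAPPA cut the binding proteins and free the ligand. *IGFBP3* and *IGFBP5* encode the members that form the large circulating complex with the acid-labile subunit, *IGFBP2* and *IGFBP4* encode binders of both ligands, and *IGFBP6* encodes a binder with a preference for IGF2. *IGFBP7* encodes a matrix-associated relative with low affinity for IGFs, which has been described as a secreted growth inhibitor in melanoma. Several of the proteins also act on cells without IGF, through the matrix or surface receptors.

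After filtering, the libraries held 4177 to 8445 cells and 25407545 to 58611860 UMIs (unique molecular identifiers, each standing for 1 captured RNA molecule). Median UMIs per cell were 8807.5 (S), 11553 (RV), 3959 (RVC) and 2871 (RVT), and the RVC and RVT tables list another set of genes than the S and RV tables, so that depth, gene annotation and double treatment cannot be told apart. All members are listed in every table. Pairs of libraries shared 36 to 105 barcodes, close to the number of chance matches. Levels are given as CPM, the UMIs of a gene per 1000000 UMIs of the library. A molecule is counted once at its 3′ end, so that CPM was not divided by gene length. Ranges in parentheses are exact 95% intervals, which cover counting error only. They leave out the spread between cells, and so are too narrow where the UMIs of a gene sit in few cells.

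The melanoma label was only in part borne out by lineage markers. Of 10 melanocyte and neural crest markers, 5 reached 1 CPM in each of S and RV, 2 did in RVC and 3 did in RVT, and their summed level was 196 CPM (S), 92.8 (RV), 13.8 (RVC) and 63.6 (RVT). The pigment genes *PMEL*, *MLANA*, *TYR* and *DCT* stayed below 1 CPM in every library, whereas the pigment gene *TYRP1* had 0.0682 CPM (S), 0.0191 (RV), 4.76 (RVC) and 1.65 (RVT). *SOX10*, the neural crest transcription factor, had no UMI in RVC. *MITF*, another of the 10 markers, had 9.78 CPM (S), 20.2 (RV), 8.13 (RVC) and 41.3 (RVT), which is most of the RVT sum. Of 6 fibroblast markers the summed level was 2.56 CPM (S), 2.23 (RV), 167 (RVC) and 43.1 (RVT), with 5 of them at or above 1 CPM in RVC and 5 in RVT. In RVC most of that sum was the collagen gene *COL3A1*, at 121 CPM, which had no UMI in S or RV. *AXL* and *VIM*, the mesenchymal markers listed for A375, summed to 2528 CPM (S), 2757 (RV), 638 (RVC) and 428 (RVT). Most of each sum was *VIM*, whereas *AXL* alone had 94.5 CPM (S), 170 (RV), 78.5 (RVC) and 98.1 (RVT). Whether the RVC library holds A375 cells alone was not tested. The fibroblast-related genes are named again below beside *IGFBP5*, and the part of other cells in any result was not tested.

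The members lie on 5 chromosomes (GRCh38, GENCODE 29). *IGFBP2* and *IGFBP5* are neighbours on chromosome 2, at 216632828 to 216664436 on the plus strand and at 216672105 to 216695525 on the minus strand, and their ends face each other across 7668 bases. *IGFBP3* spans chromosome 7 from 45912245 to 45921874 (minus strand), *IGFBP4* chromosome 17 from 40443461 to 40457731 (plus strand), *IGFBP6* chromosome 12 from 53097436 to 53102345 (plus strand) and *IGFBP7* chromosome 4 from 57030773 to 57110385 (minus strand). The gene body of *IGFBP7* overlaps *POLR2B* and *IGFBP7-AS1* on the other strand, of which the latter had at most 2 UMIs in a library. The neighbour of *IGFBP3* on chromosome 7, *IGFBP1*, is listed in every table.

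RefSeq promoter windows (GRCh38.p14) matched 5 of the 6 members. The 250 bases before the start are shown for *IGFBP4* and *IGFBP5*, because in S cells this pair had the lowest ratio of observed to expected joint detection, close to that of *IGFBP5* with *IGFBP7*, as described further down. The *IGFBP4* window is chr17:40443200-40443449 on the plus strand and the *IGFBP5* window is chr2:216695550-216695799 on the minus strand, each written 5′ to 3′. Capitals mark matches, on either strand, to any of 6 short motifs: GGGCGG of the GC box, TATAAA of the TATA box, CCAAT of the element bound by NF-Y, TGANTCA of AP-1 sites, GGAATG of TEAD sites, and CACGTG of the E-box.
IGFBP4: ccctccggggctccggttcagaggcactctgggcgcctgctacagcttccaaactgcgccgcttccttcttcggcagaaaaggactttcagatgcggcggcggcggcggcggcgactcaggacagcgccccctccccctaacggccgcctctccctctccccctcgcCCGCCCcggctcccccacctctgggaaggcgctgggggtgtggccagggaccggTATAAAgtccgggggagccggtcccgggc
IGFBP5: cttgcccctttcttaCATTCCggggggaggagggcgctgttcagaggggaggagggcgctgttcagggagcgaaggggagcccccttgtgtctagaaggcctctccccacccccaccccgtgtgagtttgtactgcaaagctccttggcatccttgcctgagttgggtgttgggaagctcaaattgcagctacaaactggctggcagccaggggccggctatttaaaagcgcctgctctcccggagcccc
The *IGFBP4* window held 1 GC box and 1 TATA box, which 42.6% and 10.7% of 35116 promoter windows of that length hold. The *IGFBP5* window held neither of these strings of letters and 1 match to the TEAD letters, found in 11.9% of windows. Only the exact letters were searched, so that other forms of an element, such as of the TATA box, are not covered. By base composition the windows also differed, with 71.6% G and C and 24 CG dinucleotides for *IGFBP4* and 61.2% and 8 for *IGFBP5*, where the median window has 58.0% and 11. *IGFBP3*, with 76.0% and 32, and *IGFBP6*, with 61.2% and 9, lay above that median for G and C, and of the 3 *IGFBP2* windows 2 lay below it, at 56.8% and 56.4%, and 1 above, at 69.2%. No window of a member held the AP-1 or the E-box letters, and these matches are letters in a window, not shown to be used.

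The family as a whole was most abundant in RVT, while *IGFBP6* led in S and RV, *IGFBP5* in RVC, and several members shared the RVT level. Together they reached 672 CPM in RVT, against 389 in RV, 283 in RVC and 278 in S. *IGFBP6* made up 53.7% of the members' UMIs in S and 64.8% in RV. In RVC *IGFBP5* alone made up 73.3%. The RVT sum was divided among *IGFBP4* with 26.1%, *IGFBP5* with 25.3%, *IGFBP3* with 22.5% and *IGFBP7* with 16.6%. Neighbours in the order of levels whose intervals overlapped were *IGFBP7*, *IGFBP3* and *IGFBP5* in S, where adjacent genes of the 3 overlapped, and *IGFBP4* and *IGFBP5* in RVT.

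**Figure D1:**
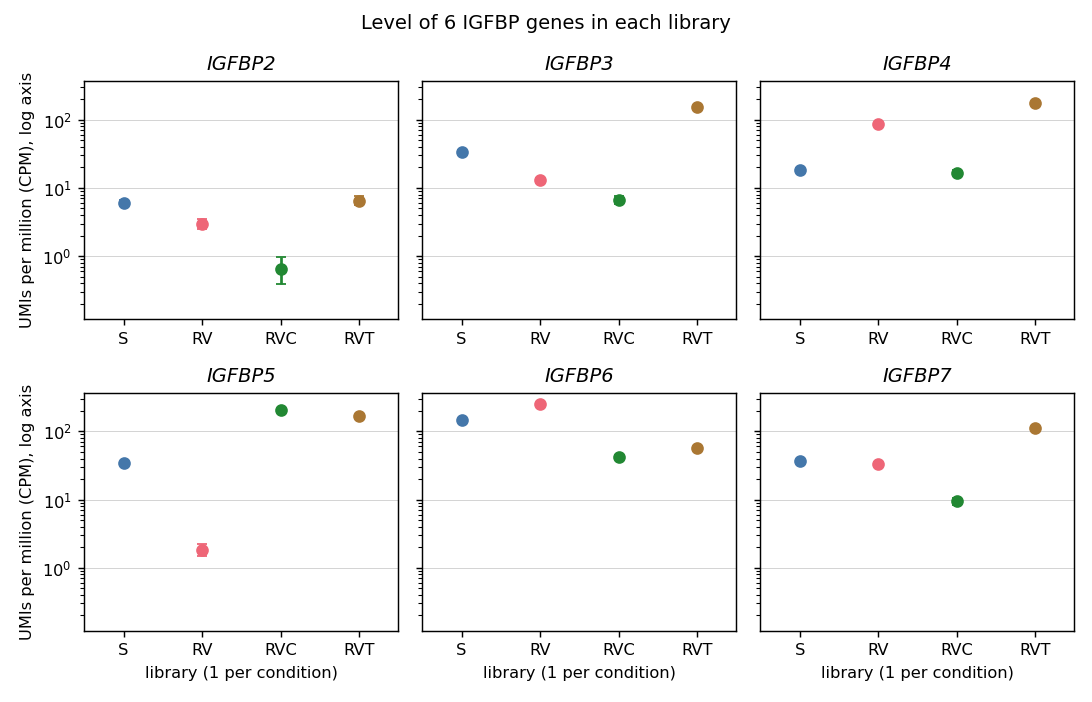
Level of each *IGFBP* gene (CPM, log axis) in the S, RV, RVC and RVT libraries, 1 library a condition, with exact 95% Poisson bars, most of which are smaller than the points. *IGFBP5* goes from 1.83 CPM in RV to 208 in RVC, while *IGFBP6* is highest in RV at 252.

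*IGFBP5* had the widest range of the family. For *IGFBP5*, S had 33.9 CPM (32.4 to 35.4), RV 1.83 (1.48 to 2.24), RVC 208 (203 to 213) and RVT 170.4 (165 to 176). It was thus the least abundant member in RV and the most abundant in RVC, where only 483 genes stood above it. Against S it was lower in RV by 18.5-fold (15.1 to 22.9), and higher by 6.13-fold (5.83 to 6.45) in RVC and 5.03-fold (4.77 to 5.31) in RVT. RVT and RVC lay close together, at a ratio of 0.820 (0.789 to 0.852). When ratios were centred within bins of the G and C content of the transcripts' last 500 bases, the log2 ratio of RVT over S went from 2.33 to 1.55, still past 2-fold.

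*IGFBP3*, a known p53 target whose protein, like that of *IGFBP5*, can form the circulating IGF complex, was most abundant in RVT. For *IGFBP3*, S had 33.9 CPM (32.4 to 35.4), RV 12.96 (12.0 to 14.0), RVC 6.67 (5.82 to 7.62) and RVT 151 (147 to 156). Both RV and RVC stood below S, by 2.62-fold (2.40 to 2.86) and 5.08-fold (4.42 to 5.87), and RVT stood above S by 4.46-fold (4.23 to 4.71). Between the double-resistant libraries the gene differed more than any other member, 22.7-fold (19.8 to 26.1) higher in RVT.

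*IGFBP4*, whose protein inhibits IGF action until PAPPA cuts it, was high in RV and RVT and near the S level in RVC. For *IGFBP4*, S had 18.5 CPM (17.5 to 19.7), RV 85.9 (83.4 to 88.4), RVC 16.7 (15.3 to 18.2) and RVT 176 (170.4 to 181). RV stood 4.63-fold (4.33 to 4.95) above S and RVT 9.47-fold (8.86 to 10.1), the highest ratio of a member over S. For RVC over S the ratio was 0.901 (0.812 to 0.999), with intervals of the levels that overlapped.

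*IGFBP2*, a binder of both IGFs that also carries an integrin-binding motif, was the rarest member outside RV. For *IGFBP2*, S had 5.99 CPM (5.38 to 6.65), RV 2.98 (2.53 to 3.48), RVC 0.637 (0.394 to 0.974) and RVT 6.49 (5.54 to 7.56), and the RVC value rests on 21 UMIs. RVC was below S by 9.40-fold (6.05 to 15.4), and RV by 2.01-fold (1.66 to 2.44), a value at the edge of the 2-fold limit. RVT and S overlapped, at a ratio of 1.08 (0.896 to 1.31), before any correction for base composition. With the same GC centring the log2 ratio of RVT over S went from 0.12 to 2.23, past 2-fold, where TMM scaling gave -0.40, and that of RVC over S from -3.23 to -1.38.

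*IGFBP6*, the binder of IGF2, was the main member of the sensitive and single-resistant cells. For *IGFBP6*, S had 149 CPM (146 to 152), RV 252 (248 to 256), RVC 42.0 (39.9 to 44.3) and RVT 56.7 (53.8 to 59.7). In RV only 431 genes had a higher level, and RV over S was 1.69 (1.64 to 1.74), short of 2-fold. Both double-resistant libraries were lower than S, by 3.55-fold (3.35 to 3.76) in RVC and 2.63-fold (2.49 to 2.78) in RVT. These differences did not last under a correction for base composition. The last 500 bases of the longest *IGFBP6* transcript are 60.6% G and C, and with the GC centring the log2 ratio went from -1.83 to 0.03 in RVC and from -1.39 to 0.72 in RVT.

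*IGFBP7*, the low-affinity relative, had its lowest level in RVC and its highest in RVT. For *IGFBP7*, S had 36.3 CPM (34.7 to 37.8), RV 33.5 (31.9 to 35.1), RVC 9.46 (8.44 to 10.6) and RVT 112 (108 to 116). S and RV differed little, with a ratio of 0.923 (0.866 to 0.984). RVC was 3.83-fold (3.40 to 4.33) lower than S and RVT 3.09-fold (2.92 to 3.27) higher, and RVT exceeded RVC by 11.8-fold (10.5 to 13.3). After centring on GC content the log2 ratio of RVT over S was 0.85 and no longer past 2-fold, and that of RVC over S went from -1.94 to -2.53.

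Counted over the family, single-drug resistance came with 1 member higher (*IGFBP4*) and 3 lower (*IGFBP2*, *IGFBP3*, *IGFBP5*) past 2-fold in RV over S, in a comparison where 3.89% of 12392 tested genes were higher and 3.27% lower. A gene counts as past 2-fold when its CPM ratio is at least 2 either way and its higher library has at least 1 CPM. In RVC over S 1 member was higher (*IGFBP5*) and 4 lower (*IGFBP2*, *IGFBP3*, *IGFBP6*, *IGFBP7*), beside 25.1% and 22.8% of all tested genes. In RVT over S 4 members were higher (*IGFBP3*, *IGFBP4*, *IGFBP5*, *IGFBP7*) and 1 lower (*IGFBP6*), beside 35.9% and 21.7%. RVT over RVC, within the pair with the same annotation, had 4 higher (*IGFBP2*, *IGFBP3*, *IGFBP4*, *IGFBP7*) and 0 lower, beside 23.5% and 12.8%. The 3 comparisons with S share that library. At a limit of 4-fold, 1 member was higher (*IGFBP4*) and 1 lower (*IGFBP5*) in RV over S, beside 0.791% and 0.96% of all tested genes. In RVC over S 1 was higher and 2 were lower at 4-fold, beside 7.11% and 11.1%, in RVT over S 3 and 0, beside 14.4% and 10.6%, and in RVT over RVC 4 and 0, beside 7.23% and 5.13%.

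The medians of the members' log2 ratios were -0.56 in RV over S, -1.88 in RVC over S, 1.89 in RVT over S and 3.37 in RVT over RVC, beside 0.02, 0.23, 0.46 and 0.31 over all tested genes. With centring on GC content the members' medians were -0.60, -0.73, 1.59 and 3.28 in the same order. Under that centring 3 members were lower past 2-fold in RVC over S. By the shares above, calls past 2-fold were also far more frequent over all genes in RVC and RVT than in RV.

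**Figure D2:**
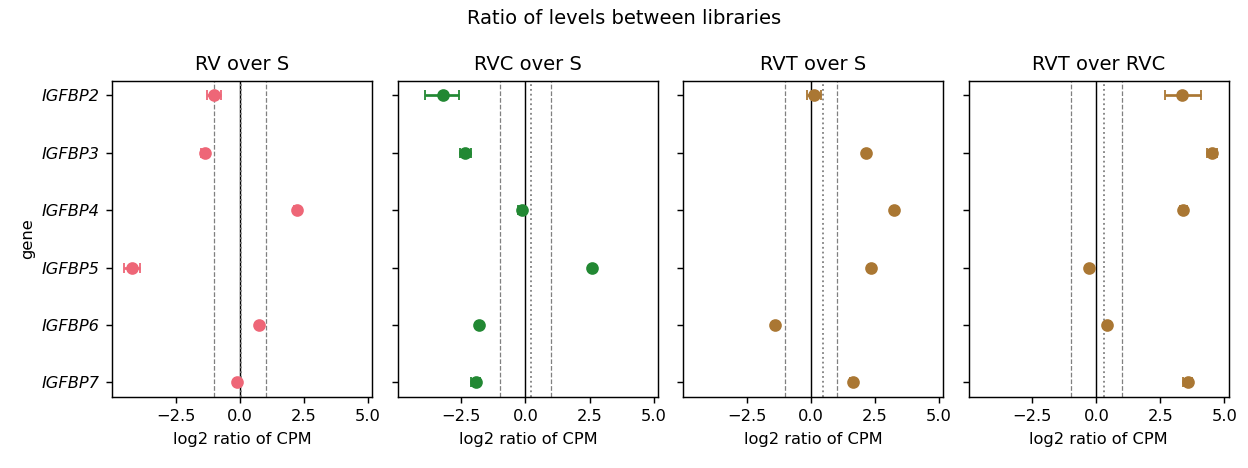
log2 ratio of CPM for each *IGFBP* gene in 4 comparisons of libraries, with 95% counting intervals as bars; the dashed lines mark 2-fold, the solid line no difference and the dotted line the median of all tested genes. In RVT over RVC *IGFBP2*, *IGFBP3*, *IGFBP4* and *IGFBP7* lie between 3.35 and 4.50, while *IGFBP5* and *IGFBP6* lie at -0.29 and 0.43.

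The share of cells with a UMI showed how far each gene was spread within a culture. *IGFBP6* was found in 53.5% (52.3% to 54.7%) of S cells and 86.8% (85.7% to 87.8%) of RV cells, but in 16.0% (15.1% to 16.8%) of RVC and 15.2% (14.5% to 16.0%) of RVT cells. *IGFBP4* was found in 13.9%, 52.7%, 6.73% and 36.1% of S, RV, RVC and RVT cells, and *IGFBP7* in 24.2%, 30.5%, 3.61% and 25.3%. These shares follow depth as well as level. With cells thinned to 1500 UMIs, leaving out the 397 RVC and 845 RVT cells below that depth and 0 in S and RV, *IGFBP6* was found in 18.6%, 30.1%, 5.94% and 7.96% of the S, RV, RVC and RVT cells, and *IGFBP4* in 2.16%, 11.9%, 2.74% and 22.5%. No cell type known to lack these genes was at hand, so the share that free RNA gives was not measured.

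*IGFBP5* was concentrated in a minority of the RVC and RVT cells. It had a UMI in 17.5% (16.6% to 18.5%) of S cells, 1.60% (1.25% to 2.03%) of RV, 22.2% (21.2% to 23.1%) of RVC and 16.1% (15.3% to 16.9%) of RVT cells. S cells were deeper than RVC and RVT cells, which raises the S share. With cells thinned to 1500 UMIs, *IGFBP5* was found in 4.80% of S, 0.239% of RV, 14.8% of RVC and 11.3% of RVT cells. The RVC level of *IGFBP5* was 6.13-fold that of S. Had its UMIs been spread over the RVC cells in proportion to their depth, 55.3% would have held one, and in RVT 38.8%. RVC cells with *IGFBP5* had 4.06 UMIs of it on average and up to 66, and RVT cells 3.19 and up to 44. The 1% of cells with the most *IGFBP5* held 23.8% of its UMIs in RVC and 34.6% in RVT, against 18.4% in S and 74.0% in RV. This share also rises where few cells hold the gene, as in RV. Cells with and without *IGFBP5* had like depths, with medians of 3983 and 3952 UMIs in RVC.

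In RVC and RVT the other members were spread more evenly. Observed over evenly spread shares were 0.401 for *IGFBP5* in RVC and 0.414 in RVT. For *IGFBP3* they ran from 0.695 in RVT to 0.880 in RVC. *IGFBP6* was uneven in S, at 0.742, and near even in the others, at 0.938 in RV, 0.981 in RVC and 0.983 in RVT. Rare genes come near 1 by construction, since few cells could hold a second UMI.

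**Figure D3:**
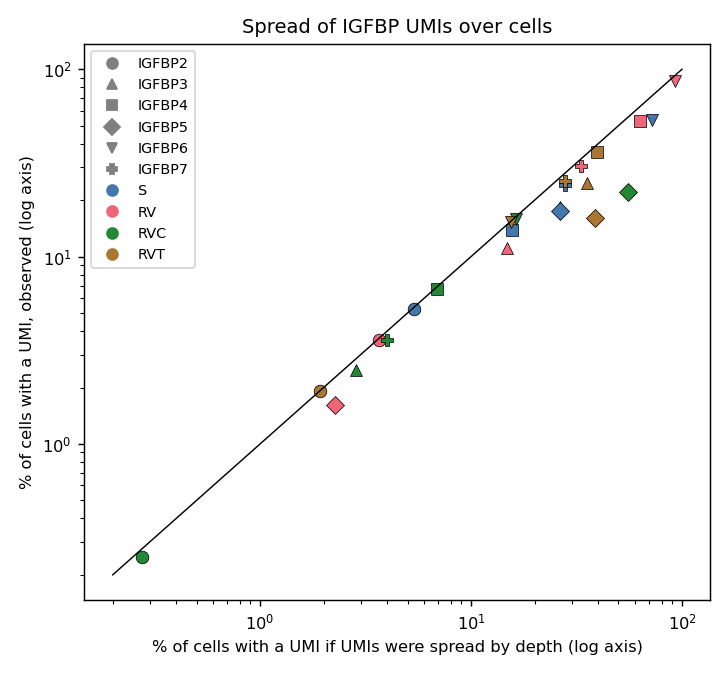
Percent of cells with a UMI of each *IGFBP* gene, observed (vertical) against the percent if the same UMIs were spread over the cells by depth (horizontal), both on log axes, with symbols for genes, colours for libraries and the line of equality. *IGFBP5* in RVC and RVT lies farthest below the line, at 22.2% against 55.3% and 16.1% against 38.8%.

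At least 1 member was detected in 79.9% of S cells, 94.9% of RV, 41.9% of RVC and 71.3% of RVT cells. At 1500 UMIs a cell the order changed, with 32.3% of S, 43.2% of RV, 23.8% of RVC and 54.4% of RVT cells. RVT cells then carried 2 or more members in 16.6% of cases, against 3.98% in S.

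Among single S cells the family divided into 2 sets. For each of the 15 pairs the cells with both genes were counted and set against the number that independent detection within 10 bins of depth would give. *IGFBP2*, *IGFBP3* and *IGFBP5* were found together more often than that, at observed over expected ratios of 1.57 (1.27 to 1.91) for *IGFBP2* with *IGFBP3*, 1.57 (1.27 to 1.93) for *IGFBP2* with *IGFBP5* and 1.46 (1.30 to 1.63) for *IGFBP3* with *IGFBP5*. *IGFBP4*, *IGFBP6* and *IGFBP7* likewise occurred together, at 1.23 (1.14 to 1.33), 1.34 (1.205 to 1.495) and 1.31 (1.24 to 1.39) for their 3 pairs. All 9 pairs across the sets lay below 1, from 0.545 (0.434 to 0.675) for *IGFBP4* with *IGFBP5* to 0.788 (0.720 to 0.861) for *IGFBP3* with *IGFBP6*, and the interval of 1 of them, *IGFBP2* with *IGFBP4*, reached above 1. Cells of a library share their culture and their droplet run, so that the intervals describe this library.

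The resistant libraries showed parts of this division. In RV the pairs among *IGFBP2*, *IGFBP3* and *IGFBP5* stood above 1, *IGFBP2* with *IGFBP3* at 1.76 (1.19 to 2.50), *IGFBP3* with *IGFBP5* at 2.05 (1.15 to 3.38) from 15 cells and *IGFBP2* with *IGFBP5* at 3.46 (1.49 to 6.81) from 8 cells, while *IGFBP4*, *IGFBP6* and *IGFBP7* occurred together about as often as independent detection gives, at 1.01 (0.969 to 1.06), 0.960 (0.889 to 1.03) and 1.00 (0.946 to 1.06). RVC kept *IGFBP3* with *IGFBP5*, at 2.03 (1.62 to 2.50), and had *IGFBP5* with *IGFBP7* at 0.452 (0.300 to 0.653), *IGFBP5* with *IGFBP6* at 1.06 (0.945 to 1.19) and *IGFBP4* with *IGFBP6* at 1.21 (1.01 to 1.45). *IGFBP4* with *IGFBP5* stood at 0.653 (0.404 to 0.998) in RV, 1.03 (0.852 to 1.23) in RVC and 1.01 (0.920 to 1.10) in RVT. All RVT pairs lay between 0.821 and 1.23, and the 3 whose intervals left out 1 were *IGFBP4* with *IGFBP7* at 1.11 (1.04 to 1.18), *IGFBP6* with *IGFBP7* at 1.14 (1.03 to 1.26) and, across the sets of S, *IGFBP3* with *IGFBP7* at 1.14 (1.05 to 1.23). Differences in these ratios between libraries were not tested.

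**Figure D4:**
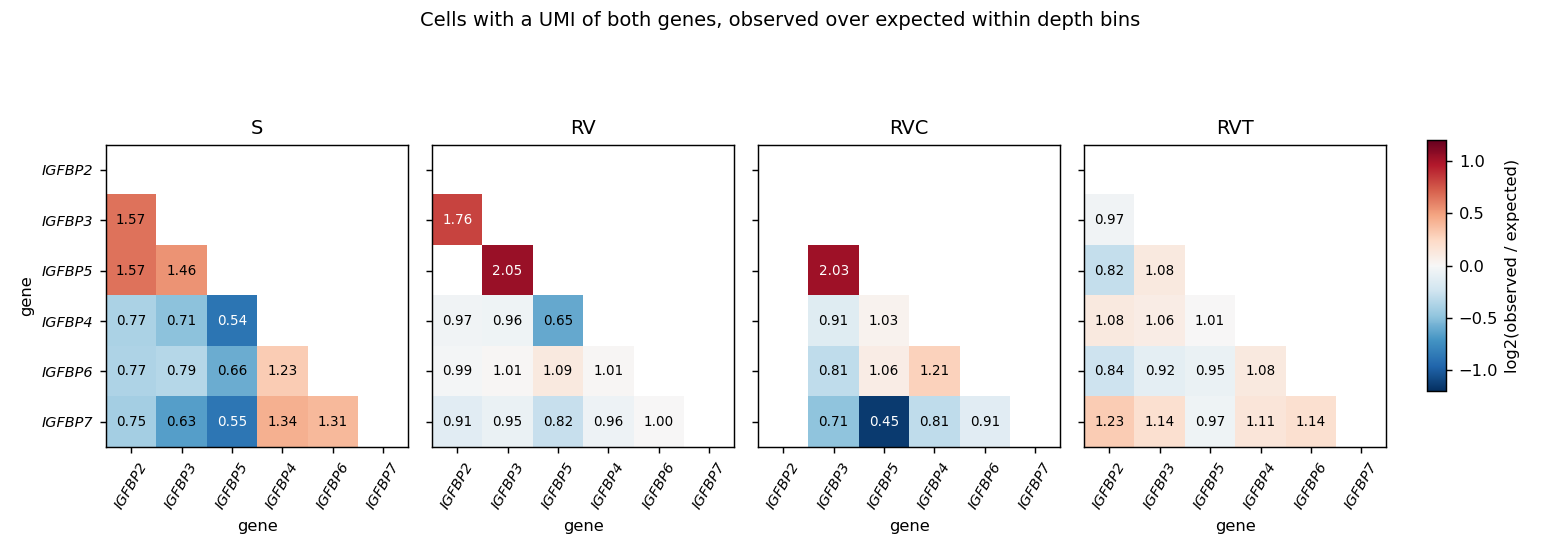
Cells with a UMI of both genes of a pair, as observed over expected within 10 bins of depth (number and colour; red above 1, blue below), for the 15 pairs in each library; pairs with fewer than 5 expected cells are blank. In S the pairs within *IGFBP2*, *IGFBP3*, *IGFBP5* and within *IGFBP4*, *IGFBP6*, *IGFBP7* lie above 1 and the 9 pairs across lie between 0.545 and 0.788.

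In S the same sets were seen by cell state. Cells in which 3 or more of 13 markers were detected, such as *SOX10*, *ERBB3* and *CD74*, are called neural crest-like here. The markers include the MHC class II presentation genes *CD74*, *HLA-DRA*, *HLA-DRB1*, *HLA-DRB5* and *HLA-DQA1*, so a cell can meet the rule by these alone. Such cells numbered 3634 of 6334 in S and 940 of 4177 in RV, and were compared with the other cells of their library. Whether they match the study's neural crest-like cluster was not tested. In S the neural crest-like cells were higher for *IGFBP3*, 48.3 against 15.2 CPM, for *IGFBP5*, 46.2 against 17.9 CPM, and for *IGFBP2*, 7.14 against 4.50 CPM. They were lower for *IGFBP4*, 10.1 against 29.4 CPM, for *IGFBP6*, 94.0 against 220.5 CPM, and for *IGFBP7*, 22.2 against 54.5 CPM. In RV *IGFBP5* kept the direction, at 5.57 against 0.782 CPM and a ratio of 7.12 (4.59 to 11.3), as did *IGFBP3* at 1.53 (1.29 to 1.81) and *IGFBP4* at 0.598 (0.550 to 0.650). *IGFBP6* and *IGFBP7* were nearly level in RV, at 0.947 (0.908 to 0.988) and 1.01 (0.899 to 1.13), and *IGFBP2* stood at 1.23 (0.835 to 1.77). In RVT 136 cells met the same rule, though 5 of the 13 markers reached 1 CPM there, against 9 in S. Their median depth was 3846.5 UMIs, against 2849 in the other RVT cells. Whether they are in the same state as the S cells was not tested. In them *IGFBP5* stood at 0.641 (0.487 to 0.829), from 59 UMIs, *IGFBP3* at 1.04 (0.825 to 1.29) and *IGFBP4* at 0.978 (0.786 to 1.202). The *IGFBP5* UMIs of RVT sat in a minority of cells, which the interval does not cover, so no direction is read from its ratio. RVC had 3 neural crest-like cells, too few for a ratio.

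S cells were also divided by *KRT81*, a hair keratin gene chosen after the values were seen. In S it had the highest correlation of any gene with *IGFBP6* (r = 0.567) and *IGFBP7* (r = 0.337) and the lowest with *IGFBP3* (r = -0.255) and *IGFBP5* (r = -0.306), so the choice itself sets these members apart and the values are a description. The S library held 2643 cells with at least 5 *KRT81* UMIs and 3309 with at most 1. *IGFBP6* was at 259 against 47.6 CPM in the former against the latter, *IGFBP7* at 60.1 against 13.8 CPM and *IGFBP4* at 31.6 against 7.38 CPM. In the other direction *IGFBP5* was at 4.42 against 60.01 CPM, *IGFBP3* at 9.07 against 56.0 CPM and *IGFBP2* at 1.87 against 9.87 CPM. Median depths of the 2 groups were 9459 and 8469 UMIs. In RV, with 1585 and 2086 such cells, *IGFBP6* was at 243 against 259.6 CPM and *IGFBP7* at 33.6 against 33.2 CPM. There *IGFBP5* and *IGFBP3* kept the direction, at ratios of 0.229 (0.122 to 0.404) and 0.513 (0.430 to 0.610), and *IGFBP4* stood at 1.21 (1.14 to 1.29) and *IGFBP2* at 0.734 (0.510 to 1.05).

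RV over S was also taken within each *KRT81* group of cells. The choice of *KRT81* set the S groups apart, so these ratios are a description too. The limits in *KRT81* UMIs were not scaled to depth, and RV cells were deeper. Their median depths were 10909.5 UMIs with at most 1 *KRT81* UMI and 12579 with at least 5, against 8469 and 9459 in S. In cells with at most 1 *KRT81* UMI, RV over S was 5.45 (5.14 to 5.78) for *IGFBP6*, 10.4 (8.996 to 12.0) for *IGFBP4* and 2.40 (2.13 to 2.72) for *IGFBP7*. In cells with at least 5 it was 0.939 (0.906 to 0.974), 2.94 (2.71 to 3.19) and 0.560 (0.512 to 0.611). *IGFBP5* was lower in RV in both, at 0.0496 (0.0386 to 0.0627) and 0.154 (0.0837 to 0.265). *IGFBP3* was lower in RV among cells with little *KRT81*, at 0.303 (0.271 to 0.338), and level among the others, at 0.958 (0.788 to 1.16). *IGFBP2* was lower in RV among cells with little *KRT81*, at 0.339 (0.262 to 0.435), and stood at 1.31 (0.876 to 1.97) among the others. Of the members past 2-fold in RV over S, *IGFBP4* and *IGFBP5* were past it in both *KRT81* groups. In neural crest-like cells RV over S was 5.56 (4.87 to 6.37) for *IGFBP4* and 0.121 (0.0924 to 0.155) for *IGFBP5*. There *IGFBP3* stood at 0.368 (0.316 to 0.426) and *IGFBP2* at 0.488 (0.340 to 0.685). In the cells outside that state these ratios were, in the same order, 3.20 (2.96 to 3.46), 0.0436 (0.0295 to 0.0625), 0.762 (0.665 to 0.874) and 0.630 (0.482 to 0.822).

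**Figure D5:**
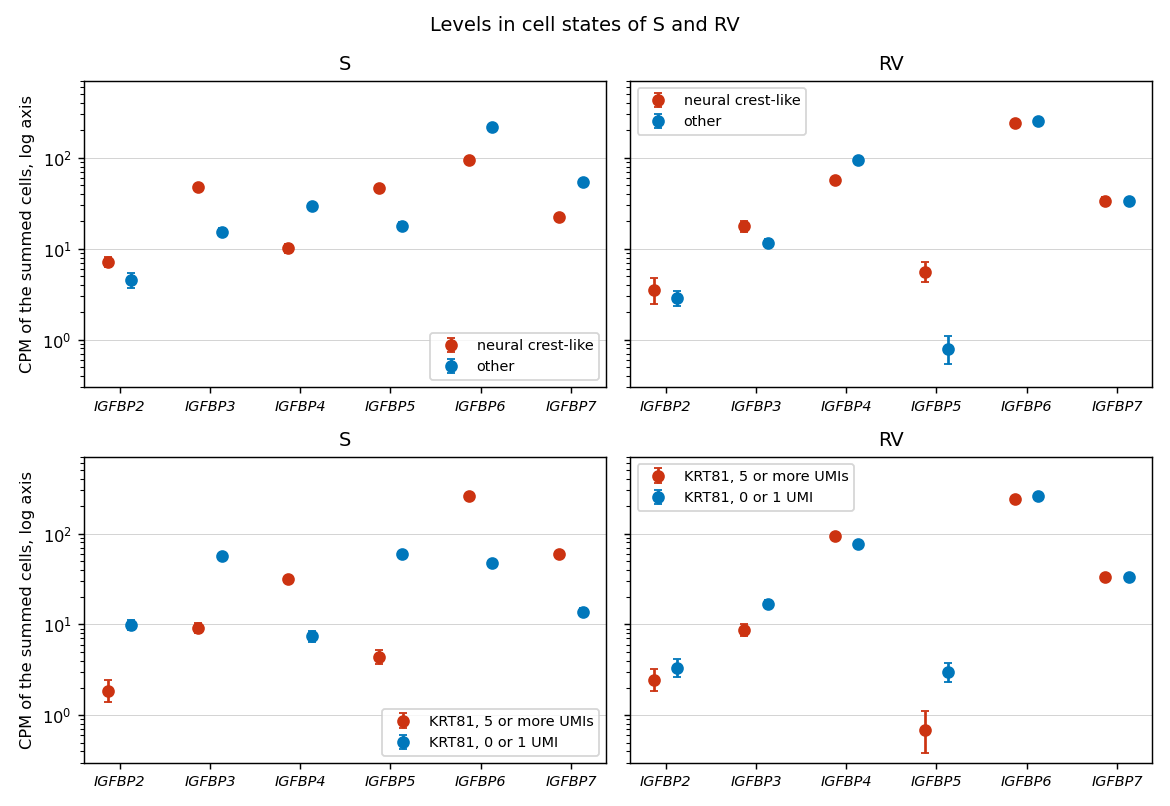
CPM (log axis) of each *IGFBP* gene summed over the cells of a state in S (left) and RV (right), with 95% counting bars: neural crest-like against other cells (top), and cells with at least 5 against at most 1 *KRT81* UMIs (bottom). In S the red and blue points lie apart, as for *IGFBP6* at 259 against 47.6 CPM, least so for *IGFBP2* at the top, at 7.14 against 4.50 CPM. In RV they nearly meet for *IGFBP6* and *IGFBP7*.

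Mitotic cells, in which 3 or more of 10 mitotic genes were detected, had less *IGFBP3* and *IGFBP5* in S, RV and RVT, though in RV the intervals reached 1 when mitotic cells were called after thinning. In S these cells had 22.0 against 40.7 CPM of *IGFBP3* and 18.8 against 42.4 CPM of *IGFBP5* against the other cells, and in RVT 46.8 against 159 CPM and 26.0 against 181 CPM. In RV *IGFBP5* stood at a ratio of 0.2005 (0.109 to 0.346) and *IGFBP3* at 0.666 (0.569 to 0.778), which came to 0.545 (0.195 to 1.23) and 0.880 (0.672 to 1.14) with mitotic cells called at 1500 UMIs a cell. In RVC *IGFBP3* stood at 0.901 (0.685 to 1.19). *IGFBP6* was lower in mitotic cells of S, RV and RVC, at ratios of 0.697 (0.665 to 0.730), 0.642 (0.620 to 0.665) and 0.745 (0.669 to 0.829), and level in RVT at 1.01 (0.813 to 1.24). *IGFBP5* in RVC stood at 0.695 (0.663 to 0.729), a direction that turned when mitotic cells were called at that depth. *IGFBP4* was higher in mitotic cells of S, RV and RVT, at 1.18 (1.04 to 1.33), 1.19 (1.13 to 1.27) and 1.21 (1.08 to 1.35). *IGFBP7* was higher in S and RVC, at 1.10 (1.01 to 1.21) and 1.33 (1.05 to 1.69). *IGFBP2* was higher in RVT, at 1.88 (1.12 to 3.02), and lower in S, at 0.744 (0.586 to 0.939). Called after thinning, *IGFBP4* in RV turned, and *IGFBP4* in S, *IGFBP7* in RVC and *IGFBP2* in RVT had intervals that reached 1. Cells with a UMI of *CDKN1A*, the p53-induced cell cycle inhibitor, had more *IGFBP5* in RVT, 218 against 154 CPM, about the same in RVC, 214 against 206 CPM, and less in S, 22.7 against 40.0 CPM at a ratio of 0.569 (0.512 to 0.631). In RV the ratio was 0.820 (0.537 to 1.26). Other members differed from *IGFBP5*, such as *IGFBP4* in S at 1.57 (1.39 to 1.77) and *IGFBP7* in RVT at 0.774 (0.705 to 0.848). Cells with a *CDKN1A* UMI were deeper, with medians of 3197 against 2768 UMIs in RVT and 9915 against 8394 in S. The *CDKN1A* groups were not called again after thinning.

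The genes whose levels over the 4 libraries were most like a member's were found among 6504 genes with a mean of at least 10 CPM, by the largest difference of the centred log2(CPM + 1) values. With 4 points many genes come close by chance, so these are descriptions. *C4orf48* had nearly the *IGFBP6* profile, with 77.2, 129, 21.6 and 29.2 CPM in S, RV, RVC and RVT and a largest difference of 0.0156. Closest to *IGFBP3* was *SDC2*, the surface proteoglycan syndecan-2, with 10.0, 3.17, 2.15 and 44.6 CPM, followed by *SPARC*, a matrix protein gene, with 321, 258, 142 and 1282 CPM. *IGFBP4* was followed by the carboxypeptidase gene *CPA4* with 2.73, 15.8, 1.36 and 25.6 CPM, the thrombin receptor gene *F2R* and *MITF*, and *IGFBP7* by *LIMCH1*, *AC023043.1* and *SPRY1*, a feedback inhibitor of MAPK signalling, with 15.1, 11.1, 2.37 and 55.5 CPM. *IGFBP5* had no close match, its nearest gene *TSHZ2* differing by up to 1.26, followed by *SLC12A8* and *HTRA1*, whose product is a protease known to cut IGFBP5. For *IGFBP2* the nearest were *PABPC1L*, *CADM1* and *FCGR2A*.

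Within the cells of the library where each member was highest, correlations were weak. *IGFBP2* was left out, since fewer than 10% of RVT cells had a UMI of it. *IGFBP5* in RVC went with *COL3A1* (r = 0.384 over 7623 cells), *TIMP1* (r = 0.276), *SERPINE2* (r = 0.267), *SOX4* (r = 0.267) and *RHOBTB3* (r = 0.233). In cells thinned to 1762 UMIs these fell to 0.319, 0.219, 0.202, 0.186 and 0.158, in the same order, and *RHOBTB3* left the top 5. *COL3A1* is a fibroblast marker of the list above, and the part of other cells in this relation was not tested. *IGFBP6* in RV went with *S100A6* (r = 0.295 over 4177 cells), *SH3BGRL3*, *FTH1*, *LGALS1* and *SERPINE2*. *IGFBP4* in RVT reached r = 0.166 with *TMSB10*, which fell below 0.15, to 0.0816, in cells thinned to 1499 UMIs, and *IGFBP3* and *IGFBP7* in RVT had no gene above 0.15. Cells of a library share depth and free RNA, and no correlation was tested.

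The other genes of the IGF system were read from a list of 52. Of the ligands, *IGF2* had at most 2 UMIs in a library and *INS* had none in any. *IGF1* had 5.51 CPM in RVT, from 140 UMIs, and at most 2 UMIs in each of the other libraries. Of the receptor genes, *INSRR* had no UMI in any library, *IGF1R* was at 15.6 (S), 9.14 (RV), 16.5 (RVC) and 24.0 (RVT) CPM and *INSR*, the insulin receptor, at 6.07 (S), 4.29 (RV), 14.1 (RVC) and 31.9 (RVT). In RVC the receptor adaptor gene *IRS1* stood out, with 3.38 (S), 9.70 (RV), 86.8 (RVC) and 18.1 (RVT) CPM, whereas *IRS2* had 37.0 (S), 22.2 (RV), 5.10 (RVC) and 26.8 (RVT).

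Several genes of IGFBP proteases and their inhibitors were higher in the double-resistant libraries than in S, and 1 was lower in both. *PAPPA*, whose product cuts IGFBP4, had 3.55 (S), 4.08 (RV), 11.8 (RVC) and 20.7 (RVT) CPM. *STC1*, which encodes an inhibitor of PAPPA, had 24.0 (S), 26.6 (RV), 57.0 (RVC) and 133 (RVT). *HTRA1*, listed with the partners of the binding proteins and not among the 10 counted here, had 4.18 (S), 2.02 (RV), 45.4 (RVC) and 55.9 (RVT), and *PRSS23*, a secreted serine protease gene, had 34.8 (S), 131 (RV), 119.8 (RVC) and 110.4 (RVT). *CTSD*, the gene of the lysosomal protease cathepsin D, was the lower one, with 65.4 (S), 79.1 (RV), 17.7 (RVC) and 31.8 (RVT), and *STC2*, a relative of *STC1*, stayed within 2-fold of S, with 12.1 (S), 14.9 (RV), 7.25 (RVC) and 13.4 (RVT). Of the 10 proteases and their inhibitors, 7 were higher and 1 lower past 2-fold among 9 tested in RVC over S, beside 25.1% and 22.8% of all tested genes. In RVT over S 6 and 1 of 9 were, beside 35.9% and 21.7%, and in RV over S 1 of 7 was higher and 0 lower, beside 3.89% and 3.27%.

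Over the whole list of 52, 5 genes were higher and 2 lower of 38 tested in RV over S, 18 and 5 of 41 in RVC over S, 24 and 3 of 41 in RVT over S and 13 and 5 of 42 in RVT over RVC, to be read against the shares of all genes given above. The median log2 ratios of the list were 0.02, 0.68, 1.37 and 0.67. Of the 14 genes of the PI3K arm, 0 were higher in RV over S, 3 in RVC over S and 7 in RVT over S, and 0 were lower in these comparisons. Beside these, 3.89%, 25.1% and 35.9% of all tested genes were higher, and 3.27%, 22.8% and 21.7% lower. *MTOR*, which encodes the growth-regulating kinase downstream of the receptors, was at 7.03 (S), 6.07 (RV), 13.1 (RVC) and 32.7 (RVT) CPM, while the kinase genes *AKT1*, at 10.1 (S) and 9.96 (RVT), and *AKT2*, at 21.1 (S) and 24.1 (RVT), stayed within 2-fold.

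Genes known to be induced beside *IGFBP* genes did not share 1 direction. Their counts past 2-fold stand beside all-gene shares of 3.89% higher and 3.27% lower in RV over S, 25.1% and 22.8% in RVC over S, and 35.9% and 21.7% in RVT over S. Of 6 p53 targets, a class that includes *IGFBP3*, 2 were higher and 0 lower in RV over S. In RVC over S 0 and 2 were, and in RVT over S 0 and 3, with 3 within 2-fold. The relation of these genes to the *IGFBP3* level was not tested. *CDKN1A* itself was at 102 (S), 248 (RV), 137 (RVC) and 112 (RVT) CPM. Of 7 secreted factors of senescent cells, 5 were higher and 1 lower in RVC over S, with *MMP1*, a collagenase gene, at 3.19 (S), 1.30 (RV), 1175 (RVC) and 1.65 (RVT). Among the 6 of them tested in the other comparisons, 0 were higher and 2 lower in RV over S, and 1 and 2 in RVT over S. Of 5 TGF-beta targets, 4 were higher and 0 lower in RVC over S and 3 and 1 in RVT over S, and of the 3 tested in RV over S 1 was higher and 0 lower. Of 4 tested hypoxia genes, 2 were higher and 0 lower in RV over S, 2 and 0 in RVC over S, and 1 and 1 in RVT over S.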

How the data were processed

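Single cells were captured by the authors on the 10x Genomics platform (v2 reagents), and their reads were run through Cell Ranger (GRCh38; bcl2fastq 2.20.0.422). The values deposited by the authors are raw UMI counts for each gene in each barcode. The study's text names no filter values. RVC and RVT tables hold as many barcodes as cells the study states, and S and RV tables hold more.

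Barcodes with at least 500 genes and at most 20% mitochondrial UMIs were kept, and those with the highest scrublet scores (scanpy 1.11.5) were removed at 0.8% per 1000 barcodes, which came to 150 to 870 a library. The tool's own threshold marked at most 5, so doublets may remain. UMIs were summed per gene and library and divided by the library total to give CPM. A count of 0 allows up to 3 UMIs, which is 0.0512 CPM in S and 0.118 in RVT. Intervals are exact Poisson, exact conditional for ratios and Clopper-Pearson for shares. Python 3.11.15 with scipy 1.17.1, and edgeR 4.0.16 for TMM factors, were used. The calculation of ratios was tested on simulated data.

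The members and the gene lists were chosen with earlier results of these data known. List genes were named where a library had at least 10 CPM, up to 6 a list by level, and the genes most like a member by 3 across libraries and 5 within cells with r above 0.15. *COL3A1*, *IGF1* and *KRT81* were named for their values. Alternatives were other cell filters, no doublet removal, TMM, totals that leave out ribosomal and mitochondrial genes, equal weight per cell, GC centring, a minimum of 10 CPM or none, 4-fold, thinning and the restriction to cell states, the last added after seeing the data. The study's clustering and trajectories were not used here. A gene of the IGF pathway list is not reported here.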

Additional observations from a re-analysis of the deposited data

Results flagged for a closer look

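For 3 members the ratio to S passed 2-fold in opposite directions in different resistant libraries. *IGFBP3* had a log2 ratio of -1.39 in RV and -2.34 in RVC over S, and 2.16 in RVT over S. *IGFBP5* had -4.21 in RV over S, 2.62 in RVC over S and 2.33 in RVT over S. *IGFBP7* had -1.94 in RVC over S and 1.63 in RVT over S, of which the latter fell to 0.85, short of 2-fold, with centring on GC content. With 1 library a condition the difference between these ratios was not tested, and all of them share the S library. Depth and gene annotation differ between RV on the one side and RVC and RVT on the other, but not the annotation between RVC and RVT.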

How the results depend on the processing

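No paired analysis was possible because each condition has 1 library, and no library could be left out for the same reason. Of 80 counts of members past a limit in 4 comparisons and 2 directions, 76 stayed within 1.5 times the reported count. At 4-fold the members lower were 1 in RV over S, 2 in RVC over S and 0 in RVT over S, and centring on GC content also left 0 lower in RVT over S. That centring turned the log2 ratio of *IGFBP6* to 0.029 in RVC over S and 0.72 in RVT over S, where *IGFBP2*, at 2.23, joined and *IGFBP7*, at 0.85, left the 4 members higher. TMM scaling moved the median log2 ratio of all genes in RVT over S from 0.46 to -0.10 and kept every member's call in the 4 comparisons. In cells with at least 5 *KRT81* UMIs, an alternative chosen after seeing the data, *IGFBP2* in RV over S turned to 0.39. Thinned to 1500 UMIs, *IGFBP2* and *IGFBP5* shared 1 S cell and a ratio of 0.33. With mitotic cells called after thinning, mitotic over other cells turned to 0.87 for *IGFBP4* in RV and 1.05 for *IGFBP5* in RVC. The causes of these changes were not tested. Of 555 values other than those counts, 204 moved beyond their counting interval or, for correlations across cells, by more than a fixed difference in r. The 6 turns given above are of ratios between libraries past 2-fold and of ratios within a library whose interval left out 1. Ratios outside these limits also turned, such as *IGFBP2* in RVT over S, from 0.12 to -0.40 with TMM. Depth limits *IGFBP2* in RVC, with 21 UMIs, and pairs in RVC.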
